A study of Mus musculus with 4 samples.

Results

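The RNA-Seq data were examined for 10 genes of the Notch pathway in immortalized brown preadipocytes. They are the receptors *Notch1*, *Notch2*, *Notch3* and *Notch4*, the ligands *Jag1*, *Jag2* and *Dll1*, and the target genes *Hes1*, *Hey1* and *Heyl*. The genes were chosen by name, each being represented by the RefSeq transcript with most reads over the 4 libraries, and they are 10 of the 23109 genes in the files. All 10 were found, and each had reads in every library. The cells were brown preadipocytes of C57BL/6J background, taken from E18.5 embryos and made immortal with SV40 large T antigen. They carried a disrupted *Mll3* gene and floxed *Mll4* alleles. Adenovirus expressing GFP (Ad-GFP) left these alleles in place and gave *Mll3*-/- cells, which the labels call WT, and adenovirus expressing Cre (Ad-Cre) gave cells of genotype *Mll3*-/-;*Mll4*-/-. The former are called control cells below. All cells compared here therefore lacked MLL3, and no cells with intact *Mll3* were analysed. RNA was taken from confluent cells on day 0 and on day 2 of treatment with insulin, T3, indomethacin, dexamethasone and IBMX, which induce adipogenesis. Each of the 4 conditions had 1 library, so no difference below has a replicate check.

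Notch receptors are membrane proteins that are activated by ligands of the Jagged and Delta-like families on neighbouring cells. Ligand binding leads to cleavage by an ADAM protease and then by γ-secretase, and the freed intracellular domain joins the DNA-binding protein RBPJ and a Mastermind-like coactivator in the nucleus. Genes of the Hes and Hey families, which encode transcriptional repressors, are their best known targets. In many cell types Notch signaling holds precursors back from differentiation. *Jag1*, *Notch3* and Hey genes take part in the Notch signaling of smooth muscle cells and pericytes.

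Promoter sequences were taken from RefSeq (GRCm38.p6), which gave 8 start sites of 7 of the 10 genes, all but *Hes1*, *Hey1* and *Heyl*. Each window ran from 250 bases before the start site to base 10 of the transcript, and was searched on both strands for TGGGAA, the core of RBPJ sites, for its longer form GTGGGAA, for the E-box CACGTG and for the N-box CACGAG. E-boxes and N-boxes are bound by HES and HEY proteins. GTGGGAA contains TGGGAA, so each hit of the first is also one of the second. The windows of *Jag1* and *Notch1*, whose reads were higher in Ad-Cre than in control cells on day 0, are shown with that of *Hey2*, a related target gene outside the 10 that had more reads there too. All 3 are written 5′ to 3′ on the gene's strand, which is the minus strand for each, with motif matches in capitals.
*Jag1* (chr2:137116511-137116770): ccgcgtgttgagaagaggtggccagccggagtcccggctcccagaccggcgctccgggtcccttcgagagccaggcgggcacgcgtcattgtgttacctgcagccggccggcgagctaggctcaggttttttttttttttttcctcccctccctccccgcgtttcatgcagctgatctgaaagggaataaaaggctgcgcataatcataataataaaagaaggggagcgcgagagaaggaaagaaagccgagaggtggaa
*Notch1* (chr2:26503813-26504072): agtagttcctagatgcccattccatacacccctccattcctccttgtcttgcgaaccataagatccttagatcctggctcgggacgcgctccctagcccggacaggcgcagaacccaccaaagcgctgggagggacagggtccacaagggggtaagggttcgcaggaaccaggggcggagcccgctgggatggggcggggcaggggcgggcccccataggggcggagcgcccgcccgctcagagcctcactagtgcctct
*Hey2* (chr10:30842774-30843033): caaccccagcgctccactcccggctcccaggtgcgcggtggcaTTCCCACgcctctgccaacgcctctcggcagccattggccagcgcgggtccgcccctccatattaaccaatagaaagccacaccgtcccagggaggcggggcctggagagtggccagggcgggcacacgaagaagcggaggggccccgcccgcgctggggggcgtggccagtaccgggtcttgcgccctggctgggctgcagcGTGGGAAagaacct
The *Jag1* and *Notch1* windows held none of the 4 motifs. The *Hey2* window held GTGGGAA at 2 places, from -207 to -201 on the opposite strand and from -4 to 3 on the gene's strand. The target *Nrarp*, also outside the 10, had 9 reads in control and 115 in Ad-Cre cells on day 0. Its window held CACGTG but no TGGGAA. That of *Hes5*, a target with at most 3 reads in any library, held GTGGGAA at 2 places. A link between motifs and reads was not tested. Of the 8 windows of the 10 genes, the one of *Notch3* alone held a motif, CACGAG from -204 to -199. Over 32851 promoter windows of the same length, TGGGAA was found in 22.4%, GTGGGAA in 5.58%, CACGTG in 6.34% and CACGAG in 5.6%. GC content was 56.9% in the *Jag1* window and 65.4% in that of *Notch1*, beside a median of 52.3% over all windows.

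Values are read counts on the exons of a transcript and RPKM, the reads per kilobase of exon scaled to the mapped reads of the library. The libraries held 17029623 reads on exons for control day 0, 22099995 for control day 2, 19388026 for Ad-Cre day 0 and 15831915 for Ad-Cre day 2. Scaled to the mapped reads of each library, which differ from these exon reads, 3 reads on a transcript of 1 kb equal 0.131 to 0.174 RPKM. Ratios are given with an exact binomial (Clopper-Pearson) 95% interval of the 2 read counts. The intervals cover counting error only and compare libraries, not conditions. Genes with an RPKM above 1 in at least 1 library (12156) were compared with a cutoff of 2.5-fold, or 1.32 on the log2 scale. The cutoff and the level of 1 RPKM are those of the study's methods, which however asked for that level in control cells, a filter given as an alternative. Counts over the whole transcript cannot show the loss of *Mll4* exons: *Kmt2d* (*Mll4*) had 6304 and 6316 reads in control and Ad-Cre cells on day 0 and 8530 and 5595 on day 2. The Ad-Cre day 2 library stood apart in its trend over transcript length. On day 2 the log2 ratio of Ad-Cre to control cells had a median of 0.41 in the shortest 20% of genes (up to 1.48 kb) and -0.66 in the longest 20% (over 4.56 kb), while on day 0 the medians were -0.15 and 0.0047. The day 2 ratio also had a trend over GC content. Its rank (Spearman) correlation was 0.43 with GC content and -0.37 with length, against -0.053 and 0.087 on day 0. At 5.49 to 10.51 kb *Jag1* and the Notch receptors belong to the longest 20%. Their day 2 values in Ad-Cre cells are therefore also given after removal of the length trend, in part with GC content also removed. The part of these trends in any result was not tested.

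Receptor reads came almost wholly from 3 of the 4 genes. *Notch1*, *Notch2* and *Notch3* passed 1 RPKM in every library and *Notch4* in none. Summed over the receptors, RPKM was 49.1 in control cells on day 0, 67.3 in control cells on day 2, 74.5 in Ad-Cre cells on day 0 and 31.7 in Ad-Cre cells on day 2. *Notch1* held 35.7% of that sum in control cells on day 0 and 66.7% on day 2, and *Notch2* held 48.9% and 24.6%. *Notch2* was thus the receptor with the highest RPKM in control cells on day 0 and *Notch1* in the other 3 libraries.

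*Notch1*, a receptor with an annotated gene on chromosome 2 (26313423 to 26372183, minus strand of NCBI37/mm9, with 34 exons in its longest coding transcript), had 2863 reads in control cells on day 0 and 9784 on day 2. In Ad-Cre cells it had 7881 reads on day 0 and 2980 on day 2. In RPKM these were 17.5 and 44.9 in control cells, and 42.6 and 17.4 in Ad-Cre cells. The order of the days was thus opposite in the 2 kinds of cells, and Ad-Cre cells on day 0 were near the level of control cells on day 2. The ratio of day 2 to day 0 was 2.56 in control cells (95% interval 2.45 to 2.67), while in Ad-Cre cells *Notch1* was 2.44-fold lower on day 2 (2.34 to 2.55). Ad-Cre cells had 2.43-fold more *Notch1* than control cells on day 0 (2.32 to 2.53) and 2.58-fold less on day 2 (2.47 to 2.68). All 4 ratios lay close to the cutoff, 2 just past it and 2 just short of it. After removal of the length trend, the log2 ratio of Ad-Cre to control on day 2 was -0.57 in place of -1.36, and -1.15 with GC content also removed. That of day 2 to day 0 in Ad-Cre cells was -0.59 in place of -1.29, and -0.93 with GC content also removed. Under TMM factors the day 2 to day 0 log2 ratio in control cells was 1.26 in place of 1.35, so that the gene no longer passed. Exons of 2 annotated genes on the opposite strand overlap those of *Notch1*, by up to 964 bases, and the strand of the counting is not given in the sources used here.

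*Notch2*, the receptor on chromosome 3 (97817461 to 97954290, plus strand), had 4338, 4000, 4674 and 1634 reads in control cells on day 0 and day 2 and Ad-Cre cells on day 0 and day 2. Its RPKM was 24.01, 16.6, 22.8 and 8.63 in the same order. The control day 2 library was below both day 0 libraries, with a log2 ratio of day 2 to day 0 in control cells of -0.54 (-0.60 to -0.47), and the Ad-Cre day 2 library was lowest. In the latter *Notch2* was 2.64-fold lower than in Ad-Cre cells on day 0 (2.498 to 2.80) and 1.92-fold lower than in control cells on day 2 (1.81 to 2.04). Both differences were smaller after removal of the length trend, the log2 ratios being -0.71 in place of -1.40 and -0.14 in place of -0.94. That of day 2 to day 0 in control cells was then -0.66. With GC content also removed, these 3 log2 ratios were -0.89, -0.47 and -0.45. On day 0 the log2 ratio of Ad-Cre to control was -0.074 (-0.13 to -0.014).

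*Notch3*, the receptor best known from mural cells of vessels, lies on chromosome 17 (32257765 to 32303825, minus strand). It had 987 reads in control cells on day 0 and 1020 on day 2, and 1402 and 747 in Ad-Cre cells. Its RPKM was 7.23, 5.59, 9.05 and 5.22 in that order. No ratio between libraries reached the cutoff. The log2 ratio of Ad-Cre to control was 0.32 (0.21 to 0.44) on day 0, and on day 2 it was -0.099 (-0.24 to 0.038). The day 2 value turned to 0.035 with TMM factors, 0.060 with DESeq2 size factors and 0.70 after removal of the length trend. With GC content also removed it was -0.11, near the value as measured. In the annotated transcript 2% of bases matched another place of the genome, and an annotated gene on the opposite strand shares up to 333 bases with an exon.

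*Notch4*, a receptor found mainly in endothelium, lies on chromosome 17 (34701213 to 34725448, plus strand). It had 39 and 44 reads in control cells on day 0 and day 2, and 10 and 48 in Ad-Cre cells. At 0.0776 to 0.403 RPKM it stayed below the filter in each library. The Ad-Cre day 0 library held the fewest reads, 4.42-fold below control cells on that day (2.17 to 9.94). The endothelial markers *Pecam1*, *Cdh5*, *Kdr* and *Tek* had at most 12 reads in any library.

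**Figure D1:**
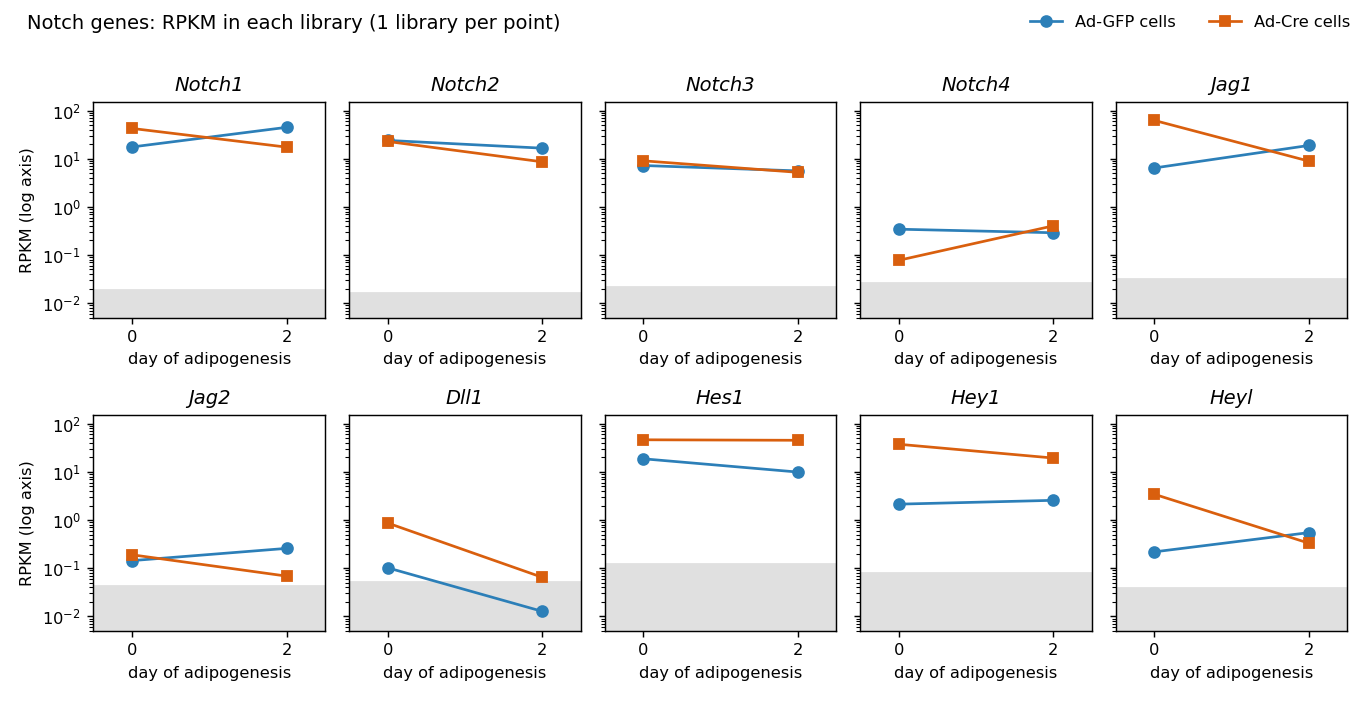
RPKM of each gene (log axis) on day 0 and day 2 of adipogenesis in control (Ad-GFP) cells (blue circles) and Ad-Cre cells (orange squares). Each point is 1 library and has no error bar. Grey marks the RPKM that 3 reads give in the library with the fewest mapped reads, control day 0. The lines of *Notch1*, *Jag1* and *Heyl* cross between the days with both changes beyond counting error, those of *Notch3*, *Notch4* and *Jag2* cross as well, and *Hes1* and *Hey1* were higher in Ad-Cre cells on both days.

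Among the ligands, nearly all reads were those of *Jag1*. It held 96.3% to 98.6% of the summed ligand RPKM in the 4 libraries, and *Jag2* and *Dll1* stayed below 1 RPKM throughout. The sum followed *Jag1* and was 6.67, 19.1, 63.5 and 9.05 RPKM in control cells on day 0 and day 2 and Ad-Cre cells on day 0 and day 2.

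*Jag1*, a ligand of the Jagged family on chromosome 2 (136907192 to 136942380, minus strand, 26 exons), had 607 reads in control cells on day 0 and 2380 on day 2. In Ad-Cre cells it had 6689 reads on day 0 and 883 on day 2. Its RPKM was 6.43 and 18.8 in control cells, and 62.4 and 8.91 in Ad-Cre cells. Ad-Cre cells on day 0 held by far the most *Jag1*, and control cells on day 0 the least. The level in Ad-Cre cells was 9.71-fold that of control cells on day 0 (8.94 to 10.6), a ratio that ranked 48 from the highest of 12156 genes. On day 2 it was 2.11-fold lower instead (1.96 to 2.29). Between the days *Jag1* was 2.93-fold higher on day 2 in control cells (2.68 to 3.21) and 7.001-fold lower in Ad-Cre cells (6.53 to 7.52). After removal of the length trend the latter log2 ratio was -2.34 in place of -2.81, and that of Ad-Cre to control on day 2 was -0.46 in place of -1.08. With GC content also removed they were -2.32 and -0.35. The day 0 log2 ratio was 3.28 both before and after.

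*Jag2*, the other Jagged ligand, lies on chromosome 12 (114146801 to 114167706, minus strand). It had 10, 24, 15 and 5 reads in control cells on day 0 and day 2 and Ad-Cre cells on day 0 and day 2. Its one interval that excluded a ratio of 1 was that of Ad-Cre to control on day 2, 3.77-fold lower (1.41 to 12.6). *Dll1*, a Delta-like ligand on chromosome 17 (15504318 to 15513836, minus strand), had 6 and 1 reads in control cells on day 0 and day 2, and 58 and 4 in Ad-Cre cells. Reads of *Dll1* were thus found mainly in Ad-Cre cells on day 0, at 0.867 RPKM against 0.102 RPKM in control cells, a ratio of 8.52 (3.69 to 24.2). An annotated gene on the opposite strand shares up to 445 bases with a *Dll1* exon. The other Delta-like ligands *Dll3* and *Dll4* had at most 10 reads.

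The 3 target genes were all higher in Ad-Cre than in control cells on day 0. Their summed RPKM was 21.1 in control and 87.3 in Ad-Cre cells on day 0, and 13.0 and 65.1 on day 2. *Hes1* held most of the sum in each library, from 53.1% to 88.8%, and the share of *Hey1* ran from 10.1% in control to 42.9% in Ad-Cre cells on day 0.

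**Figure D2:**
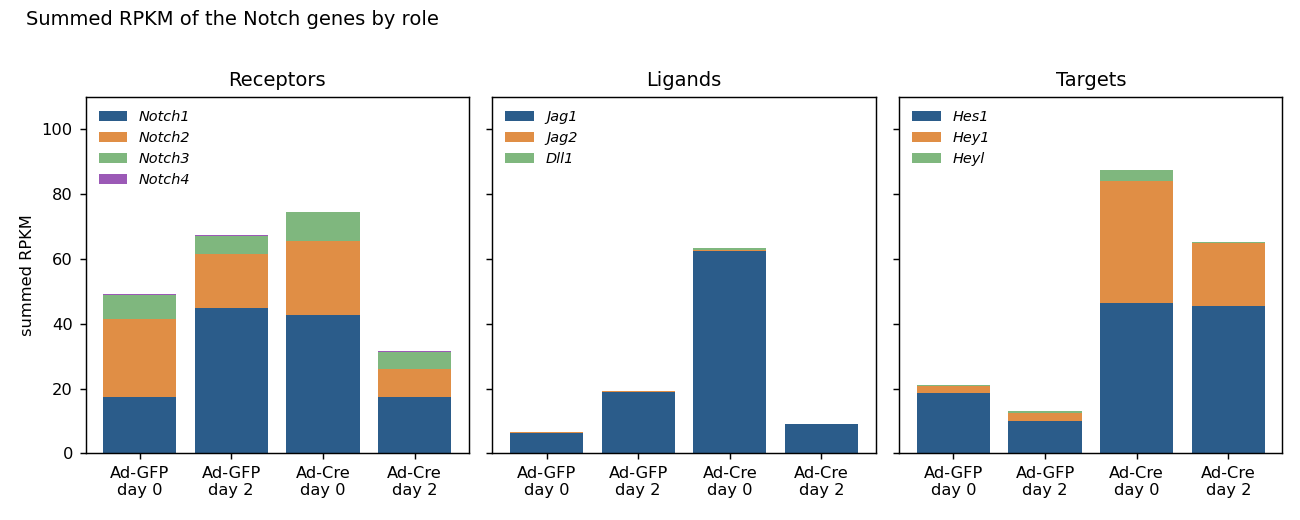
Summed RPKM of the receptors, ligands and targets in each library, with 1 library per bar and the part of each gene in its color. The receptor bars reach 74.5 RPKM or less, *Jag1* makes up nearly all of each ligand bar, and the target bars of both Ad-Cre libraries (87.3 and 65.1) exceed those of both control libraries (21.1 and 13.0).

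*Hes1*, a basic helix-loop-helix repressor, lies on chromosome 16 (30064470 to 30067882, plus strand). It had 467 reads in control cells on day 0 and 331 on day 2, and 1314 and 1186 in Ad-Cre cells. Its RPKM was 18.7, 9.92, 46.4 and 45.3 in that order. The level in Ad-Cre cells was nearly the same on both days, with a log2 ratio of day 2 to day 0 of -0.034 (-0.15 to 0.080). In control cells *Hes1* was 1.89-fold lower on day 2 (1.63 to 2.18). The ratio of Ad-Cre to control was 2.48 on day 0 (2.23 to 2.76), just short of the cutoff, and 4.57 on day 2 (4.04 to 5.18). The day 0 log2 ratio of 1.31 passed the cutoff with TMM factors (1.34), DESeq2 size factors (1.33) and the length trend removed without (1.37) or with (1.40) GC content, but not with a pseudocount (1.27). After removal of the length trend, the day 2 log2 ratio of the 2 kinds of cells was 1.93 in place of 2.19, and that of day 2 to day 0 in Ad-Cre cells was -0.51.

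*Hey1*, a repressor of the Hey family on chromosome 3 (8663362 to 8667039, minus strand), had 81 reads in control cells on day 0 and 130 on day 2, and 1613 and 771 in Ad-Cre cells. Its RPKM was 2.14 and 2.56 in control cells, and 37.5 and 19.4 in Ad-Cre cells. Both Ad-Cre libraries were far above both control libraries. The ratio of Ad-Cre to control was 17.6 on day 0 (14.0 to 22.2), which ranked 36 from the highest, and 7.56 on day 2 (6.27 to 9.18), which ranked 213. Between the days *Hey1* was 1.93-fold lower on day 2 in Ad-Cre cells (1.77 to 2.11), whereas the interval in control cells included a ratio of 1 (0.903 to 1.61). Trends over length and GC content moved the day 2 log2 ratio of the 2 kinds of cells from 2.92 to between 2.93 and 3.06.

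*Heyl*, the third target, lies on chromosome 4 (122910799 to 122927118, plus strand). It had 17 and 57 reads in control cells on day 0 and day 2, and 303 and 27 in Ad-Cre cells. Its RPKM was 0.218, 0.547, 3.43 and 0.330, so that it passed the filter through the Ad-Cre day 0 library alone, where it was high. There *Heyl* was 15.7-fold above control cells (9.65 to 27.3), which ranked 39 from the highest, and 10.4-fold above Ad-Cre cells on day 2 (6.99 to 16.0). In control cells the ratio of day 2 to day 0 was 2.51, with a wide interval from 1.44 to 4.60. *Heyl* ended past the cutoff there as measured but short of it under each of the 5 other scalings, pseudocounts and trends tried.

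**Figure D3:**
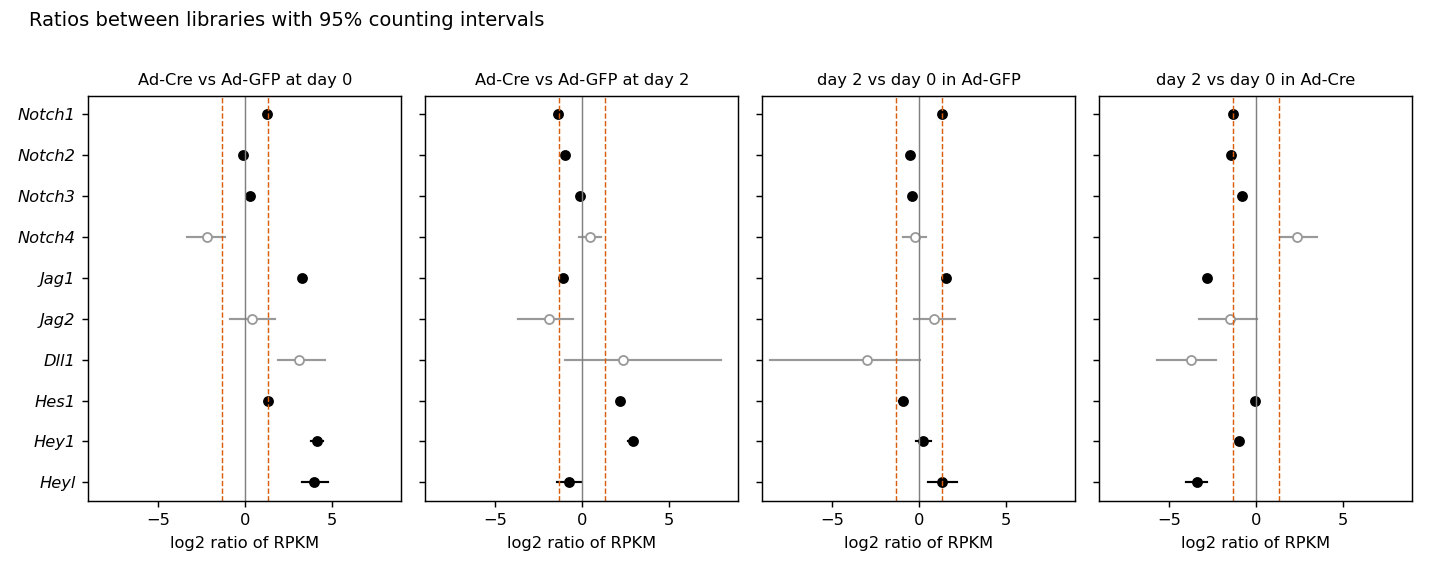
Log2 ratios of RPKM for the 10 genes in 4 comparisons of libraries, with 95% exact binomial intervals that cover counting error only; dashed lines mark 2.5-fold, and open grey points are genes below 1 RPKM in every library. On day 0 *Jag1*, *Hey1* and *Heyl* lie right of the cutoff (3.28, 4.13 and 3.97), and on day 2 *Hes1* and *Hey1* do (2.19 and 2.92).

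Between Ad-Cre and control cells on day 0, 3 of the 7 genes that passed the filter were over 2.5-fold higher (*Jag1*, *Hey1*, *Heyl*), beside 2.09% of all 12156 genes, and 0 were lower, beside 4.17%. On day 2, 2 genes were higher (*Hes1*, *Hey1*), beside 9.61%, and *Notch1* alone was lower, beside 9.88%. The median log2 ratio of the 7 genes was 1.31 on day 0 and -0.73 on day 2, against -0.015 and -0.14 over all genes. The day 2 median was the value of *Heyl*. *Notch1*, *Notch2*, *Notch3* and *Jag1* belong to the longest 20% of genes, whose day 2 median was -0.66. With the length trend removed, their day 2 values were -0.57, -0.14, 0.70 and -0.46 in that order. Those of *Hes1*, *Hey1* and *Heyl* were 1.93, 2.93 and -0.28. With GC content also removed, the 7 values were -1.15, -0.47, -0.11, -0.35, 2.11, 3.06 and -0.56. Among all genes past the cutoff on day 2, the share that was higher was 49.3% as measured and 61.5% with DESeq2 size factors, and TMM factors moved the median of all genes from -0.14 to -0.0073. Since *Heyl* entered only through the Ad-Cre day 0 library, where it was high, the filter fixed its part in the day 0 count. With 1 RPKM asked for in control cells, *Heyl* dropped out and the day 0 count was 2, beside 1.26% of all genes. With TMM factors and the filter over all libraries, *Hes1* also passed and the count was 4, beside 2.17%.

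From day 0 to day 2 in control cells, 3 of the 7 genes were over 2.5-fold higher (*Notch1*, *Jag1*, *Heyl*), beside 8.48% of all genes, and 0 were lower, beside 13%. In Ad-Cre cells 0 genes were higher, beside 9.62%, and 3 were lower (*Notch2*, *Jag1*, *Heyl*), beside 10.4%. The medians of the 7 genes were 0.26 in control and -1.29 in Ad-Cre cells, against 0.14 and -0.0077 over all genes. In Ad-Cre cells the median was 0.67 in the shortest 20% of all genes and -0.54 in the longest 20%. With the length trend removed, the Ad-Cre values were -0.59 for *Notch1*, -0.71 for *Notch2*, -0.099 for *Notch3* and -2.34 for *Jag1*. They were -0.51 for *Hes1*, -1.15 for *Hey1* and -3.11 for *Heyl*. With TMM factors *Jag1* alone passed in control cells, and with the length trend removed *Notch2* did not pass in Ad-Cre cells. The filter also fixed the part of *Heyl* in the Ad-Cre count. With 1 RPKM asked for in control cells both counts of 3 were 2, beside 8.43% in control and 10% in Ad-Cre cells. The comparisons of days and of cells share libraries, so they are not independent of one another.

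The change from day 0 to day 2 was then set side by side in the 2 kinds of cells, as the log2 change in Ad-Cre minus that in control cells with a conditional exact 95% interval of the 4 read counts. The difference was -4.36 for *Jag1* (-4.53 to -4.19), from 1.55 in control to -2.81 in Ad-Cre cells. It was -4.70 for *Heyl* (-5.75 to -3.67) and -2.64 for *Notch1* (-2.73 to -2.56), 2 other genes that were higher on day 2 in control cells and lower in Ad-Cre cells with both intervals excluding a ratio of 1. Smaller differences below 0 were found for *Jag2* (-2.32), *Hey1* (-1.22), *Notch2* (-0.87) and *Notch3* (-0.42). *Hes1* (0.88) and *Notch4* (2.62) had intervals above 0, and that of *Dll1* included 0. The difference kept its sign after removal of the length trend for *Notch1* (-1.82), *Jag1* (-3.73) and *Heyl* (-4.25). It was -0.044 for *Notch2*, and for *Notch3* it turned to 0.40. With GC content also removed, the change of *Notch2* was -0.45 in control and -0.89 in Ad-Cre cells. That of *Notch3* was -0.15 and -0.53, so both genes again had the lower change in Ad-Cre cells.

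**Figure D4:**
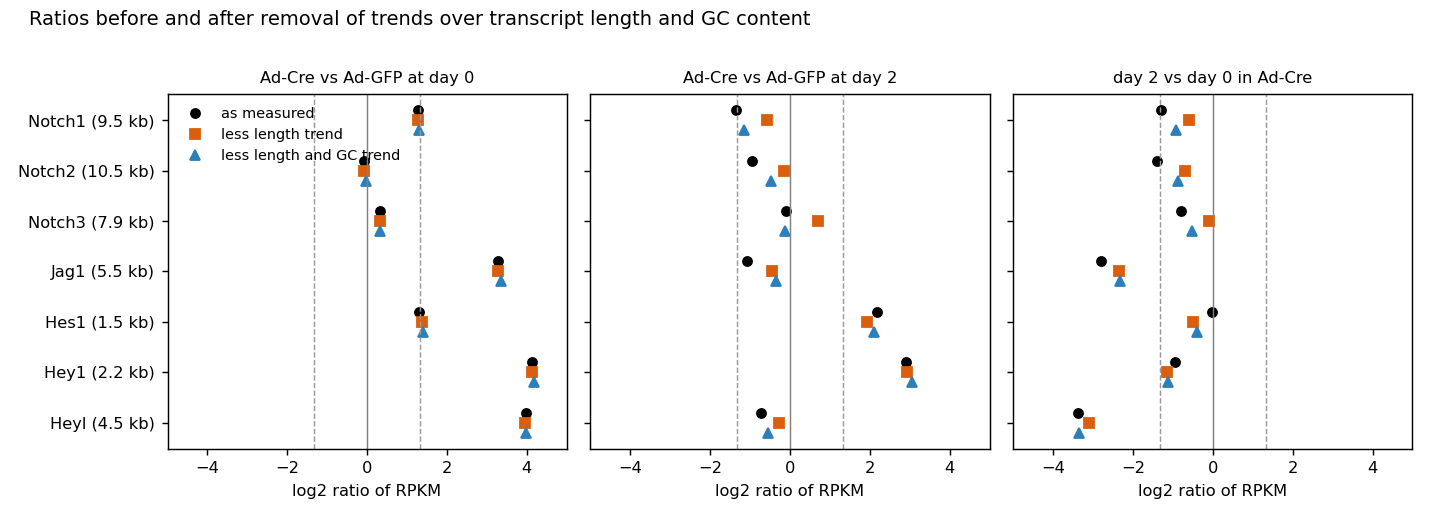
Log2 ratios of RPKM for the 7 genes above 1 RPKM in some library, as measured (black circles), less the trend over transcript length (orange squares) and less trends over length and GC content (blue triangles), with exon length in kb beside each name and dashed lines at 2.5-fold; no error bars are drawn. On day 0 the 3 symbols lie close together, those of *Hes1* on both sides of the cutoff (1.31, 1.37 and 1.40), while for *Notch1* on day 2 they spread from -1.36 to -0.57.

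Of 40 further genes of the pathway, 39 were in the files and 33 passed the filter. Between Ad-Cre and control cells on day 0, 4 of the 33 were over 2.5-fold higher and 3 lower, and on day 2, 6 were higher and 5 lower. From day 0 to day 2, 3 were higher and 4 lower in control cells, and likewise 3 and 4 in Ad-Cre cells, which is near the shares over all genes given above (8.48% and 13%, 9.62% and 10.4%). On day 0 the shares over all genes were 2.09% and 4.17%, and on day 2 they were 9.61% and 9.88%. The median log2 ratio of the 33 genes was 0.01 for Ad-Cre against control cells on day 0 and -0.33 on day 2, beside -0.015 and -0.14 over all genes. Of the 33, *Nrarp*, *Hey2*, *Maml3*, *Hes7* and *Dtx1* passed the filter through 1 library alone, where each was highest, so that the filter fixed their part in the counts that set this library against another. The day 0 count also holds *Dtx1* with 8 against 1 reads, a ratio whose interval included 1.

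Among other target genes, *Nrarp*, an inhibitor of Notch signaling that is itself a target, had 9 reads in control and 115 in Ad-Cre cells on day 0, a ratio of 11.3. On day 2 it had 17 and 32 reads. *Hey2* had 9 and 68 reads in control cells on day 0 and day 2, and 47 and 11 in Ad-Cre cells. Its 4 ratios thus had the signs of those of *Notch1*, *Jag1* and *Heyl*. They were 4.60 for Ad-Cre to control on day 0 and 5.65 for day 2 to day 0 in control cells, while *Hey2* was 3.95-fold lower on day 2 in Ad-Cre cells. *Hes7* had 8 or 9 reads in 3 libraries and 59 in Ad-Cre cells on day 2, and *Hes5* at most 3.

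In the nuclear complex, *Rbpj* had 486, 482, 407 and 299 reads in control cells on day 0 and day 2 and Ad-Cre cells on day 0 and day 2, and no ratio between libraries passed the cutoff. Its log2 ratio of Ad-Cre to control on day 2, -0.34, turned to 0.28 after removal of the length trend. The coactivator gene *Maml2* had 844 and 225 reads in control cells on day 0 and day 2, and 1576 and 550 in Ad-Cre cells. It was 5.01-fold lower on day 2 in control cells and 2.65-fold lower in Ad-Cre cells. The latter log2 ratio of -1.40 was short of the cutoff with a pseudocount (-1.25), with the length trend removed (-0.94) and with length and GC trends removed (-0.79). On day 2 *Maml2* was 3.12-fold higher in Ad-Cre than in control cells (2.66 to 3.66). That log2 ratio of 1.64 was 2.26 with the length trend removed, and short of the cutoff with a pseudocount alone (1.21). *Maml3* fell from 307 to 104 reads in control cells and had 117 and 50 in Ad-Cre cells. *Maml1* was 2.62-fold lower in Ad-Cre than in control cells on day 2, short of the cutoff under all 5 alternative scalings, pseudocounts and trends. The corepressor gene *Cir1* had 37, 32, 14 and 112 reads, the last in Ad-Cre cells on day 2.

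Of the proteases that cleave the receptors, *Psenen*, a subunit of γ-secretase, alone passed the cutoff, at 112 reads in control and 47 in Ad-Cre cells on day 0 (2.70-fold lower), and its log2 ratio of -1.43 was short of the cutoff with a pseudocount (-1.23) and with the length trend removed without (-1.25) or with (-1.21) GC content. *Lfng*, which glycosylates the receptors, had 219 reads on day 0 and 77 on day 2 in control cells (3.80-fold lower). Of the ligases that act on the ligands, *Neurl1b* was 2.95-fold higher in Ad-Cre than in control cells on day 0. *Mib2* was 2.90-fold higher on day 2 in control cells, whereas *Mib1* was 2.82-fold lower in Ad-Cre than in control cells on day 2. That log2 ratio of -1.50 was -1.03 with the length trend removed and -0.75 with length and GC trends removed, both short of the cutoff. *Neurl1a*, below 1 RPKM in every library, had 44 reads on day 0 and 14 on day 2 in control cells, against 30 and 68 reads in the Ad-Cre libraries. It was 4.20-fold lower on day 2 in control cells (2.26 to 8.30) and 6.19-fold higher in Ad-Cre than in control cells on day 2 (3.45 to 11.9).

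Among inhibitors and turnover genes, *Numb* and *Numbl*, which encode related inhibitors, moved in opposite directions on day 2. *Numb* had 1018 reads in control and 274 in Ad-Cre cells (2.91-fold lower), and *Numbl* had 924 and 2867 (3.96-fold higher). The Deltex genes *Dtx1* and *Dtx3* were higher in Ad-Cre cells on day 2, with 101 against 3 reads and 2609 against 850 reads. *Dtx4* was 2.52-fold lower there, short of the cutoff under all 5 alternatives. *Dtx2* was 2.99-fold higher on day 2 in control cells.

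Markers of the cell types that express Notch genes were read beside these values. The smooth muscle and pericyte markers *Acta2*, *Myh11* and *Cspg4* moved with *Jag1* and the Hey genes on day 0, all 3 being over 2.5-fold higher in Ad-Cre cells, at 84322 against 23576, 1387 against 71 and 2410 against 781 reads. On day 2 *Acta2* (7928 against 714 reads) and *Myh11* (172 against 39) passed the cutoff in the same direction. On that day *Hey1* was higher in Ad-Cre cells too (log2 ratio 2.92). *Jag1* (-1.08), *Heyl* (-0.73) and *Hey2* (-2.28) were instead lower there. From day 0 to day 2 in control cells, *Acta2* was 44.1-fold lower, whereas *Jag1* was 2.93-fold higher. The pericyte marker *Rgs5* had 9 reads or fewer in every library. Summed over the 4 markers, RPKM was 777, 18.4, 2454 and 249 in control cells on day 0 and day 2 and Ad-Cre cells on day 0 and day 2. Preadipocyte markers summed to 314, 114, 148 and 77.1 RPKM in the same order. *Pdgfra* was 7.57-fold lower and *Dlk1* 13.9-fold lower in Ad-Cre than in control cells on day 0, while *Pdgfrb* had 8371 and 13013 reads. The 5 adipocyte markers summed to 26.2, 1673, 13.4 and 422 RPKM. Myogenic markers had at most 1 read, and the macrophage markers *Ptprc* and *Adgre1* had 0 reads in each library. The macrophage marker *Csf1r* had 16 reads on day 0 and 2 on day 2 in control cells, against 3 and 4 reads in the Ad-Cre libraries. In bulk RNA, more cells of a type and more RNA per cell cannot be told apart, and the part of these marker genes in the Notch values was not tested.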

How the data were processed

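The 4 RNA-Seq libraries were grouped by the genotype and day in their labels. The authors aligned reads of 50 bases to mm9 and deposited, per the file headers, a whole-number read count on the exons of each RefSeq transcript, without normalization, and its RPKM. Dividing the count by the mapped reads listed in the study's supplement gave whole-number exon lengths for 100% of deposited RPKM values, within 0.001 base. The submitters' processing notes name bedtools 2.16 and SICER 1.1, without their role. How reads with several matches or opposite strands were treated is not given in the sources used here. RPKM also depends on the annotated exon length and on the share of reads taken by abundant transcripts.

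Symbols were assigned to 97.8% of 29082 transcripts from a RefSeq table of GRCm38.p6, used for names and promoter sequences. Coordinates came from GENCODE vM1 on NCBI37/mm9, and repeated sequence was sought there with blastn 2.17.0 as matches elsewhere of at least 50 bases and 96% identity. For each gene the transcript with most reads was kept. All 10 Notch genes are named, and of the other pathway genes those with at least 20 reads in a library and a ratio past 2.5-fold, and *Rbpj*. The other ligands *Dll3* and *Dll4* and the target *Hes5* are outside this rule and are named for their low counts. The genes, lists and settings were chosen with earlier results of these data known.

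No test between conditions was run and no p-value is given, since no condition has a replicate. Ratios carry no pseudocount, and exact intervals were computed with scipy 1.17.1. TMM factors (edgeR 4.0.16) and size factors (DESeq2 1.42.0) were used in R 4.3.3 as alternative scalings alone. The other alternatives were 2 other filters, a pseudocount of 1 RPKM, cutoffs of 2-fold and 4-fold, the interval bound, the mean over transcripts, and removal of trends over length and GC content as medians of 20 bins, in 5 rounds where both were used. The trends of the differences between changes were removed as alternatives chosen after seeing the data. Intervals and calls were tried on simulated Poisson counts of known depth, in which well-covered transcripts were raised beyond the cutoff. These counts held no spread between cultures and no trend over length or GC content. For intervals and calls they thus checked counting error alone. Figures were drawn with matplotlib 3.10.9.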

Additional observations from a re-analysis of the deposited data

Results flagged for a closer look

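Changes of opposite sign under the same contrast, both with intervals that exclude a ratio of 1, were found for *Notch1*, *Jag1* and *Heyl*. From day 0 to day 2 the log2 ratio of *Notch1* was 1.354 in control and -1.289 in Ad-Cre cells, that of *Jag1* 1.553 and -2.808, and that of *Heyl* 1.327 and -3.375. Between Ad-Cre and control cells the log2 ratio of *Notch1* was 1.279 on day 0 and -1.365 on day 2, that of *Jag1* 3.28 and -1.08, and that of *Heyl* 3.974 and -0.7278. With the length trend removed, the 2 values of *Notch1* in the Ad-Cre day 2 library were -0.593 from day 0 to day 2 and -0.566 against control cells. The day 2 value of *Jag1* against control cells was then -0.46, and -0.35 with GC content also removed. That of *Heyl*, from 27 against 57 reads, had an interval from -1.45 to -0.043. It was -0.28 with the length trend removed, -0.56 with GC content also removed and -0.22 with a pseudocount. With 1 library per condition the differences were not tested against the spread between replicates, and both sets use the same 4 libraries.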

How the results depend on the processing

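Leaving out a library removes every comparison that uses it, as each condition has 1. No paired analysis was possible because no condition has a replicate. Counts of Notch genes past the cutoff were least stable where ratios lay near 2.5-fold. The count higher on day 2 in control cells (3) was 1 under TMM factors, DESeq2 size factors, a pseudocount, the interval bound and removal of the length trend. The share over all genes there was 5.14% to 7.32%. It was 0 genes at 4-fold, beside 3.83%. The count lower in Ad-Cre than in control cells on day 2 (1, *Notch1*) was 0 under each of these settings and with length and GC trends removed. Over all genes the share was then 3.05% to 7.675%. This count was 2 at 2-fold, beside 17.7%, and 2 without a filter, beside 9.845%. Without a filter, which admits genes below 1 RPKM, 1 gene was lower in control cells on day 2, beside 14.3% of all genes. In Ad-Cre cells on day 2, 1 was then higher and 5 lower, beside 12.7% and 10.8%. Between Ad-Cre and control cells on day 0, 1 was then lower, beside 7.84%. At 2-fold, 5 genes were higher in Ad-Cre cells on day 0, beside 3.43%. Of 230 recomputed ratios and differences of single Notch genes, 168 stayed within the counting interval, 61 moved beyond it, and 1 that was past the cutoff or had an interval excluding 0 changed sign, the difference of the changes of *Notch3*, which was 0.3993 with the length trend removed in place of -0.4235. The day 2 ratio of *Notch3* between the cells, whose interval included 0, also changed sign. The cause was not tested. Depth limits *Jag2*, *Dll1* and *Notch4*, with 58 reads or fewer in each library.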
